A study of Drosophila melanogaster with 3 samples.

Results

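Of the 9316 Sox14 binding summits in the authors' optimal peak list for Drosophila melanogaster white prepupae, 1403 (15.1%, 95% Wilson interval 14.4 to 15.8) lay deep inside introns. Each lay within the span of a protein-coding gene and in no annotated exon, more than 5000 bp from every protein-coding transcription start site (TSS) and more than 1000 bp from the start of every noncoding RNA gene. A summit is the position of highest signal in a peak. The choice used position alone and not the height of the peak. Sequence that meets the same conditions is called eligible here, and 26.94 Mb, or 20.1% of the 133.9 Mb on the 6 chromosome arms, was eligible in 1738 genes. The members lay in 467 of those genes. They were set beside 2099 promoter-near intronic summits (500 to 5000 bp from a protein-coding TSS), 1148 intergenic summits and 3810 promoter summits (within 500 bp) of the same list.

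The study mapped Sox14 by chromatin immunoprecipitation and sequencing (ChIP-seq) in 3 biological replicates that form 1 group. The animals carried a transgene for Sox14 with GFP at its C terminus, and an anti-GFP antibody recovered the tagged protein. Whole prepupae of both sexes at the white prepupa stage were pooled, with the age given as unknown, so every peak is an average over tissues and the cells that give it are not known. The peak lists of all 3 replicates and of their pool hold 30000 peaks each and include weak ones. The optimal list is the set the authors kept by a test of agreement between replicates. It is identical to the 9316 strongest peaks of the pooled list, and each replicate's own 9316 strongest peaks, called its top list below, were used to measure replicate error.

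Sox proteins bend DNA through an HMG box and bind in the minor groove, usually at sites close to AACAAT or AACAAAG. Sox14 is induced by the moulting hormone ecdysone and is needed for parts of metamorphosis, among them the pruning of neurons. White prepupae stand at the start of metamorphosis, shortly after a pulse of ecdysone. The receptor EcR and a set of response genes such as Eip75B, Eip74EF and Hr3 then switch tissues from larval growth to breakdown or remodelling. Many of these regulators, and many genes of signalling pathways and patterning, have very long introns that hold enhancers.

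The windows below, 50 bp on each side of the summit, are shown because most lie under the strongest distal intronic summits described next, among them those of Eip75B, Hr4, dpp and tkv. The windows of heca and ush were added as examples that hold a Sox word. They are plus strand, build dm6, from the RefSeq genome sequence, 5′ to 3′. Capitals mark the words AACAAT and AACAAAG, and the word ACTAT, on either strand. The word ACTAT was chosen after the values were seen.
CG32486, chr3L:3060743-3060843: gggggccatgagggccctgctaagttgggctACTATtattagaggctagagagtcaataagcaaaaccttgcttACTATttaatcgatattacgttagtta
Raf, chrX:2300650-2300750: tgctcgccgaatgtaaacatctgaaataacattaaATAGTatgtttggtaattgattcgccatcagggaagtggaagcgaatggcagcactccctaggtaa
Hr4, chrX:1951857-1951957: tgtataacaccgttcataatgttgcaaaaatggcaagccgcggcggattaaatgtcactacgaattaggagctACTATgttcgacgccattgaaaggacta
Eip75B, chr3L:18011855-18011955: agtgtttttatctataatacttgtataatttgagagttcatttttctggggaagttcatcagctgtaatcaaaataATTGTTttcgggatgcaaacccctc
Eip75B, chr3L:18009137-18009237: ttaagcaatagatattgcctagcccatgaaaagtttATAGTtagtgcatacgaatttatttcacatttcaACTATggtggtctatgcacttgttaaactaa
dpp, chr2L:2433597-2433697: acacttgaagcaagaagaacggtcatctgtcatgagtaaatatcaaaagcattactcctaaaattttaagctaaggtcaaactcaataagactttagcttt
gpp, chr3R:6424069-6424169: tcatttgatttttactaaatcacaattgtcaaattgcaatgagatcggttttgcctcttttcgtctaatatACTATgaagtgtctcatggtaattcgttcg
Dad, chr3R:17065081-17065181: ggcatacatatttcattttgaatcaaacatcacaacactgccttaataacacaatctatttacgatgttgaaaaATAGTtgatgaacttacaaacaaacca
tkv, chr2L:5254268-5254368: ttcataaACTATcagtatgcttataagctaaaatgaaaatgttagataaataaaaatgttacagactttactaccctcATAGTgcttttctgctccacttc
Snoo, chr2L:7925542-7925642: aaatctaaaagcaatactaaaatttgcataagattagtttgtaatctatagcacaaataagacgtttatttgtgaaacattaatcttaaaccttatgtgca
heca, chr3R:30296092-30296192: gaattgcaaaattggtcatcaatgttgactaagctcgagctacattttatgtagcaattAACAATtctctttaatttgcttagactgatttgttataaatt
ush, chr2L:510780-510880: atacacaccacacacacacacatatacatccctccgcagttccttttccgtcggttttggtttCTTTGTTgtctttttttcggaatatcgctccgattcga
Of the first 20 members by signal whose windows were read, 19 held neither AACAAT nor AACAAAG. The windows of shn and Psc, which are also among the 20 strongest members, were not read. The windows of the first summit at Eip75B and of the summit at heca hold AACAAT, and that of ush holds AACAAAG. The windows of CG32486, tkv and the second summit at Eip75B hold ACTAT at 2 places each, and those of dpp and Snoo hold none of the 3 words.

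The strongest member lay in the first intron of CG32486, 5714 bp from the nearest protein-coding TSS and 10046 bp from that of its own gene. Its signal, on the peak caller's own scale, was 1920 in the pooled list, and it had ranks 23, 28 and 22 in replicates 1, 2 and 3. A summit in the second intron of Raf, the kinase that carries receptor tyrosine kinase signals to MAP kinase, had a pooled signal of 1452 and ranks 57, 46 and 61. Hr4, an ecdysone-induced nuclear receptor, held summits of signal 1335 and 1068, with ranks 74, 56 and 90 for the stronger. All these summits were among the first 151 peaks of every replicate.

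Eip75B encodes a haem-binding nuclear receptor and is one of the classic early ecdysone genes. Its strongest distal intronic summit, 12084 bp from any start site, had signals of 593.5, 279.4 and 449.8 in replicates 1, 2 and 3, the lowest in replicate 2. Its next, 9366 bp from a start site, had 228.6, 369.2 and 277.8, the lowest in replicate 1, so the order of the pair was not the same in every replicate. E23, an ecdysone-induced ABC transporter, had a best member of signal 701.5, and its 5 members had a median of 434.7. At EcR itself all 9 members were weaker, with the best at 312.8 and only 3 of the 9 in the top lists of all 3 replicates.

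The 20 strongest hosts included 5 genes that act in BMP signalling, a group picked out after their values were seen. How many genes of this pathway had eligible sequence was not counted, and 26.9% of all genes with eligible sequence hosted a member. The activin receptor gene babo had no member, but it held only 1.951 kb of eligible sequence. The ligand gene dpp had a summit of signal 1041 at 5275 bp from its start, with 274.6, 397.1 and 371.9 in the replicates. The inhibitory Smad gene Dad had one of 769.3, the corepressor gene Snoo 730.2, the Mad cofactor gene shn 723.7 and the type I receptor gene tkv 708.1. Each of these 5 was in all 3 top lists. Other strong members had signals of 1106 at the remodeller gene Mi-2, 1023 at the histone methyltransferase gene gpp, 846 at the histone kinase gene JIL-1 and 710.1 at the Polycomb gene Psc. The growth regulator Myc had 960.9, CG42238 817.7, the Hippo pathway gene ex 757.4 and RhoGAP19D 741.8. One strong member differed widely between replicates. The summit in dnr1 had 87.49, 339 and 243.5 in replicates 1, 2 and 3, with ranks 2418, 136 and 322.

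The members had a median signal of 153, with an interquartile range of 113 to 226, and reached 1920. Promoter-near intronic summits had a median of 167 and reached 3118. Distal intronic summits made up 4% of the first 100 optimal peaks, 7.75% of those ranked 101 to 500, 14% of those ranked 501 to 1000 and 17.6% of those ranked 8001 to 9316. Promoter summits made up 58% of the first 100 and 38.0% of the last group. Of the 5825 distal intronic summits in the pooled list of 30000 peaks, 1403 (24.1%, Wilson interval 23.01 to 25.2) were in the optimal list. The share over all pooled peaks was 31.1%, and it was 29.4% for promoter-near intronic, 21.7% for intergenic and 46.3% for promoter summits.

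The replicates recovered the members about as often as the rest of the list. Within 100 bp, replicates 1, 2 and 3 had 80.0, 80.6 and 81.0% of the members in their top lists, against 80.2, 79.4 and 85.2% of the other optimal summits. The difference of -1.08 ± 2.76 percentage points (SD, n = 3) was smaller than its spread, and an exact two-sided sign-flip test over the 3 replicates gave p = 0.75. With 3 replicates this test cannot give a p below 0.25. A total of 812 members (57.9%, Wilson interval 55.3 to 60.4) were in the top lists of all 3 replicates, beside 58.6% of all optimal summits, 382 were in 2, 190 in 1 and 19 in none. The members stood slightly lower in the rank order, at median percentiles of 82.3, 83.5 and 82.1, against 85.1, 84.6 and 84.7 for the other optimal summits. That difference of -2.12 ± 0.97 percentile points had the same sign in all 3 replicates (exact sign-flip p = 0.25). Of the 100 strongest members 98 were in all 3 top lists, and of the 100 weakest none was. The optimal list ranks the pool of these replicates and is cut at the same length as the top lists, so this contrast is largely built in. A gene named for a single weak member rests on less than one named for a strong one.

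Summit density was lower far from start sites than near them, with no drop at the 5000 bp limit. Members occurred at 52.1 per Mb of eligible sequence in the optimal list. In the top lists the density was 49.7 ± 1.47 per Mb for distal intronic sequence (SD, n = 3), against 100.4 ± 2.95 per Mb for promoter-near intronic sequence. The difference of -50.7 ± 1.92 per Mb exceeded its spread and was negative in all 3 replicates (exact sign-flip p = 0.25). The optimal list had 75.4 summits per Mb at 3 to 5 kb, 78.9 at 5 to 7 kb, 70.0 at 7 to 10 kb, 66.7 at 10 to 15 kb, 45.8 at 20 to 30 kb and 33.4 at 30 to 50 kb. In the top lists the 5 to 7 kb step had 74.1 ± 1.58 per Mb and the 30 to 50 kb step 30.05 ± 1.75. The signal did not fall in step, with a median of 157 for members at 5 to 10 kb and 149 for those over 20 kb. The members nearest to the limit were in Pdk at 5005 bp and Doa at 5006 bp, and the nearest summits left out were in CG46339 at 4989 bp and tna at 4987 bp. The signals of the Pdk and Doa summits were 298.9 and 117.3, and those of the CG46339 and tna summits 347 and 278.8.

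**Figure D1:**
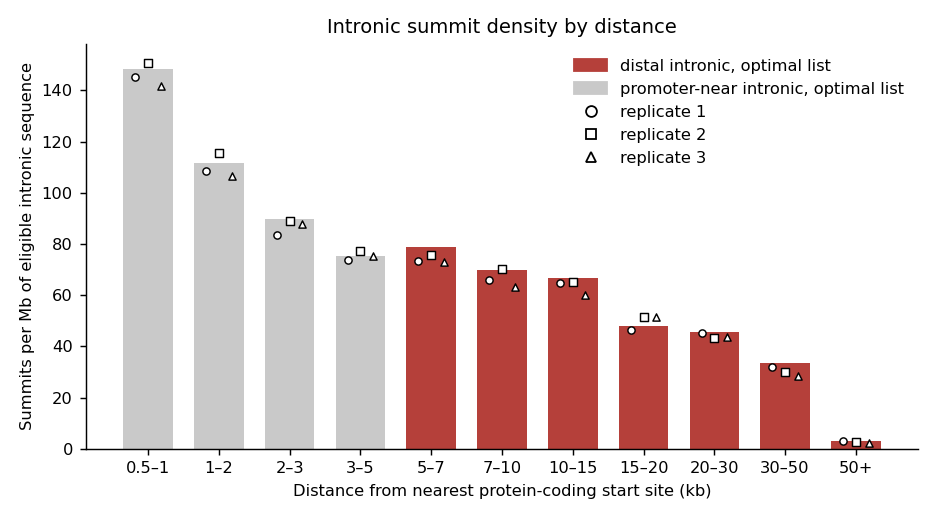
Summits per Mb of eligible intronic sequence by distance from the nearest protein-coding start site (kb). Bars are the optimal list, red for distal and grey for promoter-near intronic summits, and open symbols are the top lists of the 3 replicates. Density is 148 per Mb at 0.5 to 1 kb, 75.4 per Mb at 3 to 5 kb, 78.9 per Mb at 5 to 7 kb, 33.4 per Mb at 30 to 50 kb and 2.90 per Mb beyond 50 kb.

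Beyond 50 kb the density was 2.90 per Mb, from 13 members in 4.476 Mb. Weaker pooled peaks thinned out there as well, at 11.8 per Mb against 207 per Mb at 5 to 7 kb. The repeat-masked share of the eligible sequence was 35.0% beyond 50 kb and 17.7 to 21.6% in all nearer steps, and its part in the drop was not tested. Of the 27 genes with over 100 kb of eligible sequence, 12 had no pooled peak at all in it, and these held 4151 kb, or 15.4% of all eligible sequence. The largest was Myo81F, a myosin gene on arm 3R with 1788 kb. The sequence of these 12 genes is part of the eligible total behind the mean density and the intron shares. How much of the step beyond 50 kb it fills was not counted. The members' median distance from a start site was 9872 bp, with an interquartile range of 6888 to 14962 bp and a maximum of 86654 bp. For 929 members (66.2%) the nearest protein-coding TSS belonged to the gene that hosts the summit, and for the rest it belonged to another gene, so the host is a position and not a target.

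Members were found in early introns more often than the sequence there would give. The first intron of the host's longest transcript held 442 members (31.5%, Wilson interval 29.1 to 34.0), beside 20.2% of eligible bases. The second held 520 (37.1%) beside 27.3% of bases, the third 193 (13.8%) beside 14.1%, and later introns 248 (17.7%) beside 38.5%. Intron length differed little, with medians of 23057 bp at members and 24880 bp over eligible bases, and members lay along the intron much as the bases did, at a median of 0.531 of its length against 0.544. By chromosome arm the density was 64.1 members per Mb on 2L, 58.4 on X, 53.8 on 3L, 46.1 on 3R, 45.2 on 2R and 10.2 on chromosome 4, where both members were in zfh2.

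Some distal intronic summits came in groups, though the share with a neighbour within 2 kb was lower than in the other classes, a difference that was not tested. The median distance to the next optimal summit was 2147 bp, against 1374 bp for promoter-near intronic, 1988 bp for intergenic and 2020 bp for promoter summits. A neighbour within 2 kb was found for 46.6% of members, against 63.0% of promoter-near intronic, 50.2% of intergenic and 49.7% of promoter summits. Chained at 2 kb, the members formed 1048 groups, of which 241 held 2 or more and together 596 members (42.5%). The groups of 6 members were at Raf (5838 bp long), gpp (7650 bp), tara (4973 bp), E2f1 (4357 bp) and cic (5474 bp). Of these genes, E2f1 encodes a cell cycle factor, cic an HMG-box repressor and tara a transcriptional regulator. How common such genes are among all hosts was not counted. Groups of 5 lay at Eip75B, tkv, chm, bab1, Reck and Eip63E. The peak interval of 72 members (5.13%) held another optimal summit, and that of 102 (7.27%) overlapped another optimal interval. Neighbouring summits may draw on the same fragments and are not independent.

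The members were spread unevenly over genes. Of the 1738 genes with eligible sequence, 467 (26.9%) hosted at least 1, 189 of them just 1 and 97 of them 5 or more. Those 97 genes held 726 members (51.8%). The 20 genes with most members held 251 (17.9%) in 4.81% of the eligible sequence. Snoo, which encodes a Ski/Sno corepressor, and kirre, an immunoglobulin-domain adhesion gene of myoblast fusion, held 18 each, in 73.95 and 209.6 kb of eligible sequence. Tet had 17, the homeodomain gene hth and SKIP 16 each, and Eip75B 14 in 37.57 kb. Next came plum, sbb, heca, the Wnt receptor gene fz, tara and the adhesion gene ed with 12 each, then the transcription factor genes Glut4EF and jing with 11. At kirre 15 of the 18 were in all 3 top lists, at Snoo 11 of 18 and at jing all 11, whereas at tara 3 of 12 and at EcR 3 of 9 were.

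**Figure D2:**
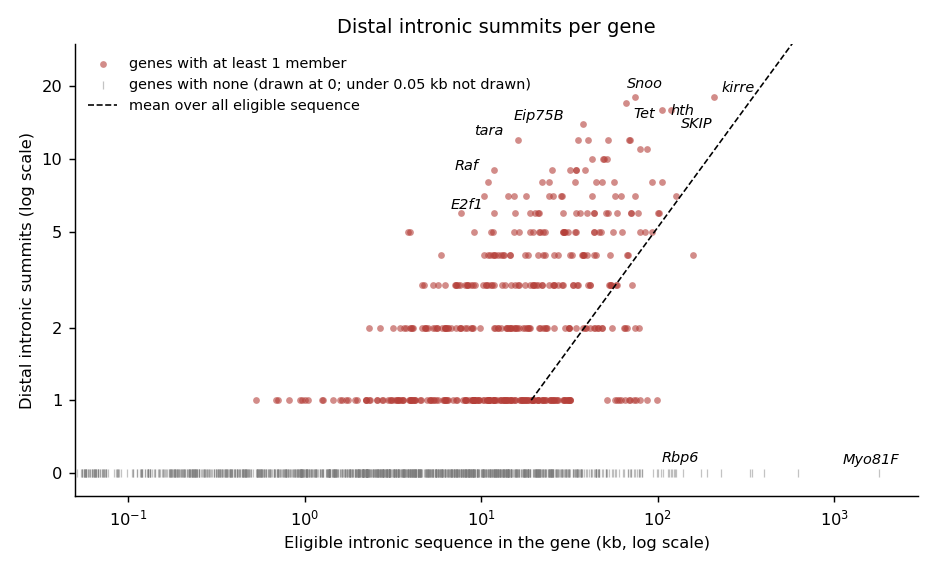
Distal intronic summits per gene against the gene's eligible intronic sequence in kb, both on log scales, with genes that host none drawn as ticks at 0. The dashed line is the mean of 5.21 per 100 kb. Snoo, kirre, Tet, SKIP and hth have most members, Raf and tara have the highest density among genes with at least 10 kb, and Myo81F has 1788 kb and none.

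Per length the order was different. Among genes with at least 10 kb of eligible sequence, Raf had 76.3 members per 100 kb, tara 74.4, the Myc-family antagonist gene Mnt 73.5, CG3726 68.0 and E2f1 51.1, beside 5.21 over all eligible sequence. The kirre gene had 8.59 and hth 15.2. The share of genes hosting a member grew with eligible length, from 1.49% of genes under 1 kb to 31.8% at 5 to 10 kb and 66.3% at 50 to 100 kb, and was 29.6% of the 27 genes over 100 kb. Some long genes had none. Rbp6, with 139.8 kb and 30 weaker pooled summits, had no member, and the RNA-binding gene bru3 had 5 weaker summits and no member in 229.4 kb.

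**Figure D3:**
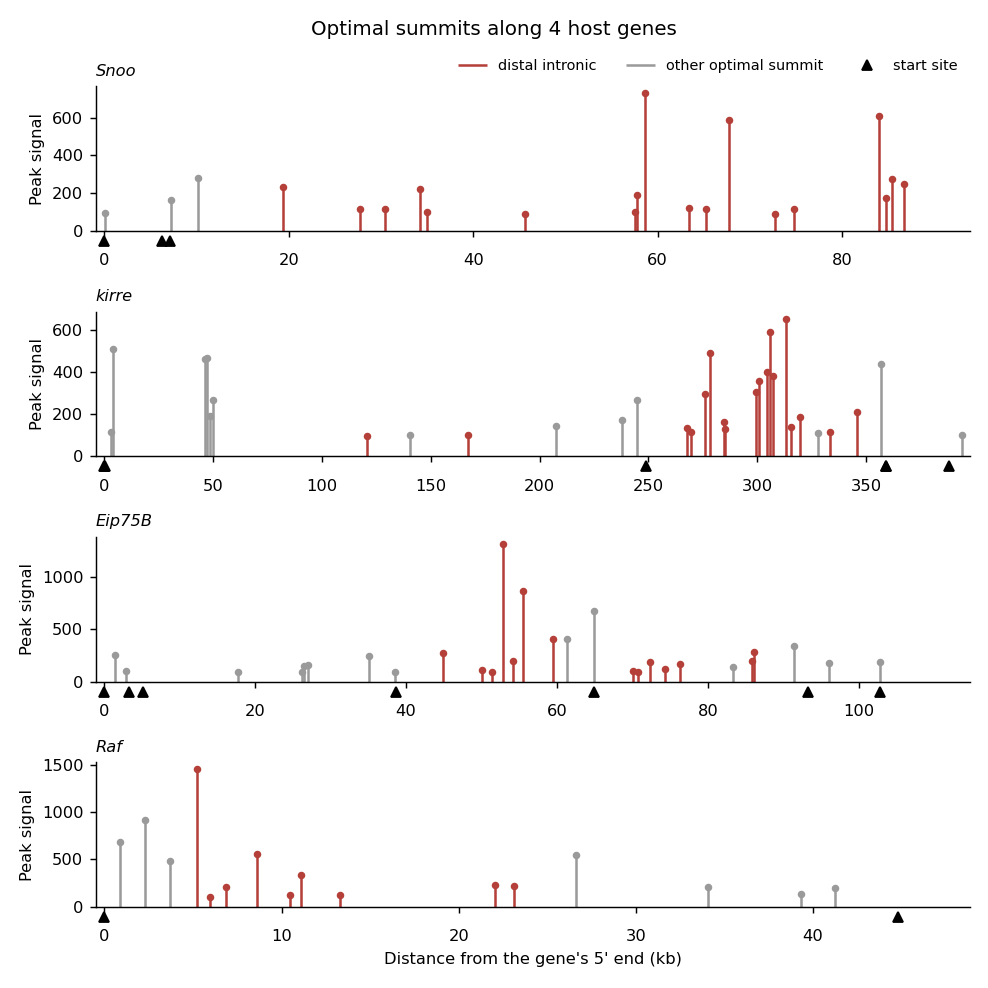
Peak signal of optimal summits in the pooled list (peak caller's own scale) along Snoo, kirre, Eip75B and Raf, by distance in kb from the 5′ end of each gene. Red stems are distal intronic summits, grey stems other optimal summits and triangles annotated start sites. At kirre 16 of the 18 members lie over 250 kb into the gene, and at Raf the strongest lies just over 5 kb from the first start.

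Among the ecdysone response regulators with eligible sequence, 15 of 17 hosted a member, beside 26.9% of all genes. They held 83 members, or 20.7 per 100 kb, against 5.21 over all genes, and the median gene had 23.4 per 100 kb, against 0. With each replicate's top list taken by itself the share was 86.3 ± 3.40%, against 26.1 ± 0.58% of all genes (SD, n = 3). Restricted to genes with 10 to 100 kb of eligible sequence, 13 of 13 hosted a member, against 49.5% of 626 genes. Receptors were represented by EcR with 9 members in 34.43 kb, Hr4 with 9, Hr3 with 3, Hr39 with 3, Hr38 with 1 and ftz-f1 with 6 in 20.89 kb. Eip74EF, an ETS factor, had 9, the EcR coactivator gene tai 10 in 51.33 kb and Eip93F, a late regulator, 2 in 38.77 kb. Neither crol, with 2.896 kb, nor Eip63F-1, with 5.526 kb, had a member. The level was not the same at each gene, since the best member was 1318 at Eip75B, 390.9 at Eip74EF, 247.3 at ftz-f1 and 227.8 at Hr3. For the Eip74EF summit of 390.9 the replicates had 216.3, 68.56 and 124.2, with the highest value over 3 times the lowest.

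Signalling genes gave a similar picture. Of the 26 ligands, receptors and effectors with eligible sequence 20 hosted a member, at 18.4 per 100 kb, and in single replicates the share was 78.2 ± 4.44%. All 12 with 10 to 100 kb of eligible sequence did. Those without a member were babo, hh, ft, Stat92E, cact and Alk, with 0.321 to 4.463 kb of eligible sequence each. Members lay in genes of the BMP pathway (dpp with 3, tkv with 7), of Wnt signalling (fz with 12, fz2 with 5, wg with 1), of Notch signalling (N with 2, its ligand Ser with 4, fng with 1), of the Hippo and Fat pathways (ds with 10, kibra with 5, ex with 2, wts with 2) and of insulin signalling (InR with 6). Of the chromatin regulators 5 of 12 (41.7%) were hosts, beside 26.9% of all genes. They had 24.2 members per 100 kb, beside 5.21 over all genes, but the median chromatin gene had 0. The rate rests on 17 members in 70.13 kb, with 7 in Smr, 4 in osa, 3 in Mi-2, 2 in trx and 1 in Psc. Patterning and cell fate transcription factors had 27 hosts of 54 and 9.60 members per 100 kb, with most at hth (16), sbb (12), bab1 (8) and luna (8) and none at abd-A in 12.77 kb.

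**Figure D4:**
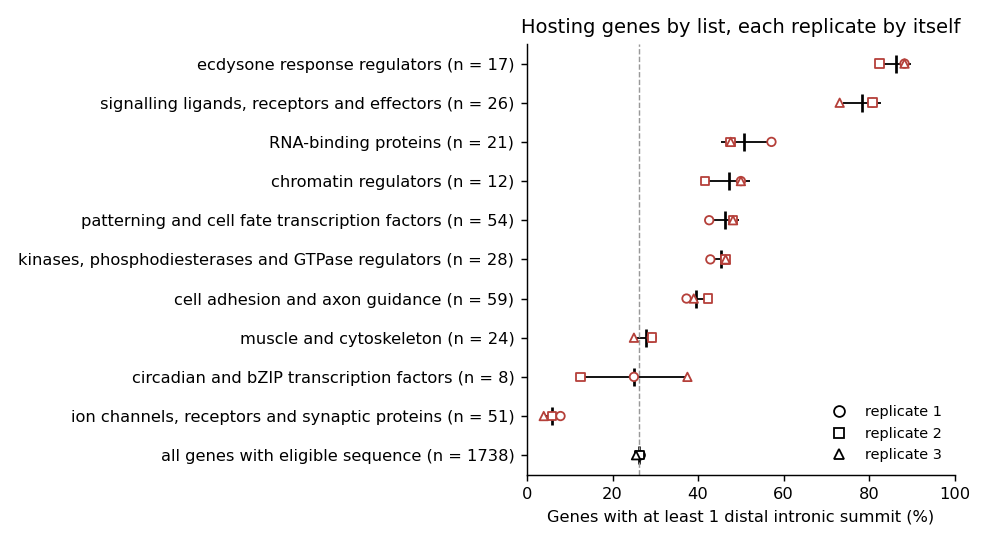
Share of genes with eligible sequence that host at least 1 distal intronic summit, for lists of at least 8 such genes, with each replicate's top list taken by itself. Open symbols are replicates, vertical ticks means and horizontal lines ± SD, and the dashed line is the mean of 26.1% over all genes. Ecdysone response regulators average 86.3%, signalling genes 78.2% and ion channel, receptor and synaptic genes 5.88%.

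Genes for ion channels, neurotransmitter receptors and synaptic proteins had hardly any. Of 51 such genes with eligible sequence 2 hosted a member, nAChRalpha6 with 2 and dnc with 1. That is 0.249 per 100 kb in 1206 kb, and in single replicates the share of hosts was 5.88 ± 1.96%. Their introns were not short, with a median of 16.86 kb of eligible sequence against 5.485 kb over all genes, and among the 30 with 10 to 100 kb the share was 6.67%, against 49.5% of all genes in that range. Weaker pooled summits outside the optimal list were also sparse, at 5.89 per 100 kb, against 16.4 over all genes. The ecdysone and signalling lists had 40.7 and 40.2 of these per 100 kb. The contrast between lists was not particular to distal introns. Of the channel and synaptic genes 7.84% had a promoter summit, against 40.5% of all genes with eligible sequence. For ecdysone response regulators that share was 76.5%, and for signalling genes 65.4%. Over all genes with eligible sequence 26.9% were hosts, with 5.21 members per 100 kb. Cell adhesion and axon guidance genes, which are long as well, had 22 hosts of 59 (37.3%) and 3.82 members per 100 kb. RNA-binding protein genes had 11 of 21 (52.4%) and 2.81 per 100 kb. Kinases, phosphodiesterases and GTPase regulators had 13 of 28 (46.4%) and 6.18, and muscle and cytoskeleton genes 7 of 24 (29.2%) and 9.02. In the range of 10 to 100 kb, 41.9% of adhesion and 77.8% of RNA-binding genes were hosts, against 49.5% of all genes. For the kinase and muscle lists the shares there were 69.2 and 50%. The other lists had 4 to 8 genes with eligible sequence. Circadian and bZIP factors had 3 hosts of 8 (37.5%). The Sox, lipid and insulin, and cell death lists had 1 host of 4 each (Sox100B, foxo and Atg1), or 25%, near the share over all genes.

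Genes that hosted a member more often had a summit at a start site too. Of the 467 hosts 290 (62.1%, Wilson interval 57.6 to 66.4) had an optimal summit within 500 bp of one of their start sites, against 413 of the 1271 genes that hosted none (32.5%, 29.98 to 35.1). In single replicates the shares were 62.3 ± 4.11% of hosts and 33.1 ± 1.07% of the others (SD, n = 3), a gap larger than the spread. Hosts had more start sites, with a median of 2 against 1, and more eligible sequence, with a median of 15.92 kb against 2.929 kb. In the range of 20 to 50 kb the shares were 62.8 ± 2.25% of hosts and 15.1 ± 1.09% of the others. The hosts Hr4, kirre, SKIP, ds and dpp were among those with no promoter summit.

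The summits marked a narrow dip in GC content. In the 101 bp around the summit 33.6% of bases were G or C, against 40.6% in windows 1000 bp to each side and 40.5% over all 256864 eligible windows of that length. Over the members of each top list the summit value was 34.3 ± 1.32% and the flank value 40.7 ± 0.04% (SD, n = 3). The dip sat inside a rise. In bins of 50 bp the GC content was 33.5% just left of the summit and 45.6% at 275 bp to the left, above the 40.5% at 975 bp. The dip was not particular to members. Intergenic summits had 33.1% at the summit and 41.6% in the flanks, promoter-near intronic summits 35.4% and 41.1%, and promoter summits 39.2% and 44.5%. The weaker distal intronic summits outside the optimal list had 37.9% at the summit.

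**Figure D5:**
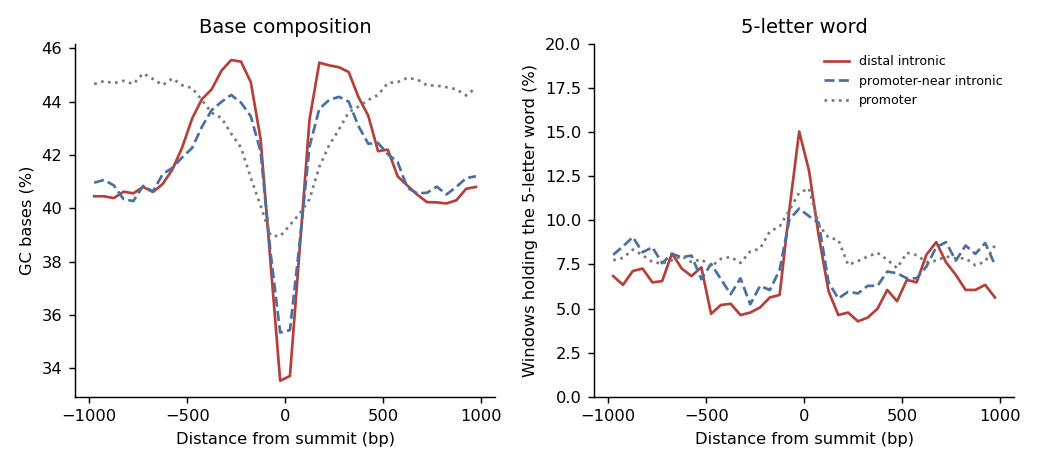
GC bases (left, %) and the share of bins holding the word ACTAT or its reverse complement (right, %) in bins of 50 bp by distance from the summit in bp. Lines are distal intronic, promoter-near intronic and promoter summits of the optimal list. At distal intronic summits GC content falls to 33.5% between shoulders of 45.6 and 45.5%, and the word reaches 15.04% of bins against 6.84% at 975 bp.

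The words AACAAT and AACAAAG were only slightly more common at the members than beside them. AACAAT was in 12.8% of summit windows, 11.4% of flank windows and 11.3% of all eligible windows. It was in 13.5% of the weaker distal intronic summits outside the optimal list. The longer word AACAATG was in 2.39 ± 0.34% of members over the top lists (SD, n = 3), against 2.56 ± 0.24% of flanks. The part of the lower GC content in these differences was not tested. Over the top lists the excess over the flanks was 1.33 ± 0.68 percentage points, positive in all 3 replicates (exact sign-flip p = 0.25). The excess over other optimal summits was 0.30 ± 0.86 points, smaller than its spread (exact sign-flip p = 1). AACAAAG was in 5.49% of members, against 3.78% of flanks and 3.13% of all eligible windows. Over the top lists its excess over the flanks was 2.10 ± 1.41 points, positive in all 3 replicates. Its difference from the other optimal summits was -0.77 ± 0.53 points, negative in all 3 replicates. The same word was in 4.5% of the weaker distal intronic summits, 7.96% of promoter-near intronic summits and 6.30% of promoter summits. By rank, AACAAT was in 15% of the 100 strongest members, 15.3% of members 101 to 400, 11% of members 401 to 800 and 12.3% of the rest, beside 12.5, 11.2, 11.9 and 10.9% of their flanks. AACAAAG was in 1, 6.33, 6 and 5.47% of the same sets, beside 2, 4.17, 4.25 and 3.57% of their flanks. TATCGATA, the word bound by the promoter factor DREF, was in 0.214% of members and 3.91% of promoter summits, and 0.194% of all eligible windows held it. CACACA was less common at members, in 5.77% of windows against 9.98% of flanks and 9.80% of all eligible windows.

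Among other words, ACTAT stood out by its ratio. It was in 336 members (24.0%, Wilson interval 21.8 to 26.3), against 11.9% of flanks and 13.8% of all eligible windows. Over the top lists it was in 23.1, 22.5 and 21.4% of members in replicates 1, 2 and 3, against 12.0% of flanks in each. Of the 100 strongest members 33% held it, against 11% of their flanks. Among the 80 5-letter words with exactly 1 G or C, counted with their reverse complements, it was the second by ratio of summit to flank share at 2.01, after the overlapping word TACTA at 2.14. ACAAT, the core of the Sox site, was number 61 at 1.15. Over the top lists the ACAAT share of members exceeded that of the flanks by 4.49 ± 1.47 percentage points (SD, n = 3). It exceeded that of the other optimal summits by 1.70 ± 0.61 points. Both differences were positive in all 3 replicates. ACTAT was in 18.5% of promoter-near intronic, 21.9% of intergenic and 20.8% of promoter summits, so it was not confined to members, and in 16.5% of the weaker distal intronic summits. GC content was lowest in the bins richest in ACTAT. The part of GC content in the excess of either word was not tested beyond the comparison with words of the same GC count.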

How the data were processed

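Peaks, as deposited by the authors on build dm6, came with a signal, which is coverage on the peak caller's own scale, and a −log10 q value, per the file headers and values. Of the members 1379 had the highest −log10 q of the list, so peaks were ranked by signal. The sources used here name no aligner, peak caller or threshold, read depth is unknown, and no control library was analysed here. Wilson intervals describe the sampling of listed peaks or genes and no sequencing error. Positions and windows were read with Python 3.11.15 and numpy 2.4.6 from Ensembl release 115 (BDGP6.54) and the RefSeq sequence of Release 6. Start sites were those of every protein-coding transcript, a member in several gene spans was given to the longest, and a pair of summits at most 100 bp apart counted as shared. Words were sought on both strands. The 3 replicates were compared by exact sign-flip tests. The position rule and word counts were tested on simulated data. Members, gene lists, words and tests were chosen with earlier results of these data known. Genes to name were drawn from the 20 strongest hosts, the 15 with most members, and in each of 13 lists the 3 best and 1 without a member. Not every gene that this rule gives was named. Further genes described among the list members, the groups, the densest genes and those without members were named after their values were seen. Alternatives varied the distances, annotation, peak sets and replicates.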

Additional observations from a re-analysis of the deposited data

How the results depend on the processing

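Of 75 alternative values for 11 results, 55 kept their direction and side of the threshold or, without a test, stayed within the replicate spread or within 1.5 times the main count. Among these the members numbered 2070 at over 2500 bp and the recovery difference was -2.55 points with summits within 250 bp shared. The number of members was 688 at over 10000 bp from a start site (in 243 genes), 2196 with the 5′ end of each gene as its only start, 649 in the upper part of the list, 812 in all 3 top lists, and 913 to 956 in the top lists of a pair of replicates. The share in the 20 genes with most members was 13.5% at over 2500 bp, 29.1% at over 10000 bp, 13.98% with gene 5′ ends, 20.7% in all 3 top lists and 19.6 to 20.4% with a replicate left out. The optimal share of pooled distal intronic summits was 62.7% for a q value under 0.01 and 22.4% at over 10000 bp. The share of replicate lists was 13.5% over 5000 peaks and 16.1% over 15000. The recovery difference reversed to 1.399 points in the full relaxed lists, and ranged from -2.21 to 0.46 with a replicate left out, positive without replicate 3. The AACAAT difference from other optimal summits reversed to -0.54 points with 100 bp on each side and -0.20 against summits over 1000 bp from a start site, and ranged from -0.20 to 0.60 with a replicate left out. The cause of these changes was not tested. No paired analysis was possible because the labels give 1 group, so no replicate number recurs in another group; the sign-flip tests take differences within each replicate.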

Other observations

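The 7-letter words with the highest ratio of summit to flank share, among those in at least 3% of members, were TAGTTAA (3.35% of members against 1.07% of flanks), next AATACTA (3.07% against 0.998%), then GATATTA (3.56% against 1.25%), then TTAAGAA (5.06% against 1.78%) and then AAACTAT (6.34% against 2.24%). TAGTTAA shares 4 letters in a row with ACTAT or its reverse complement, as does AATACTA, and AAACTAT holds it, whereas GATATTA and also TTAAGAA share no such stretch. By difference of shares the leading words held A and T only, with AAATATA in 12.9% of members against 5.88% of flanks, and AACAAAG was number 214 of 8192. These words were picked after their values were seen. No control library was analysed here, so regions that any ChIP recovers were not told apart from Sox14 sites, and read depth, which limits weak peaks, is unknown.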
